A study of Homo sapiens with 24 samples.

Results

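HES and HEY genes encode basic helix-loop-helix repressors of transcription, and NOTCH1 encodes the receptor that switches several of them on. The group described here is HES1, HES2, HES4, HES6, HES7, HEY1, HEY2, HEYL and NOTCH1, 9 of the 63299 genes in the deposited table. The group was chosen by the treated and control levels of HES2 in these samples, where it rose from near 0 on treatment, so those values are given below as a description, without a test. Of the 9 genes, 8 passed the filter on low counts. HES2 was among them, and its untreated A2780cis libraries at 12 h already held 22.5 to 39 counts. HEY2 had 0 counts in all 24 libraries. The 7 remaining members were tested among 20240 genes.

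The libraries come from A2780, a human ovarian cancer cell line sensitive to platinum drugs, and from its isogenic platinum-resistant subline A2780cis, each labelled as a single line and grown in RPMI1640 medium. Cells received either standard medium (control) or medium with 1 µM 5-FdU-ECyd, a duplex-prodrug that joins 2'-deoxy-5-fluorouridine to 3'-C-ethynylcytidine, for 6 h or 12 h. This gives 8 groups of line, treatment and time with 3 libraries each: A2780 control and treated at 6 h, the same at 12 h, and the matching 4 groups of A2780cis. The A2780cis cultures, control and treated alike, had at intervals been passaged in 1 µM cisplatin, so the lines differ in culture history as well as in resistance. The study calls the 3 libraries of a group biological triplicates without saying whether each had its own flask, and p-values measure the spread between these libraries.

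Totals per library ran from 11077368 to 21901406 counts. Untreated libraries of 6 h held 11077368 to 14372622 counts and those of 12 h 15253875 to 21366058, so depth moved with time in the controls, and its part in the time comparison was not tested. In A2780cis at 12 h the controls held 17628534 to 21366058 counts and the treated libraries 15142949 to 15410865, without overlap. The part of depth in that treatment comparison was not tested either. Levels are given as CPM, counts scaled to 1e+06 of the library size after TMM normalization. They are shares of a library, so a rise need not mean more transcript per cell. The study describes 3'-C-ethynylcytidine, once cleaved from the prodrug, as an inhibitor of RNA synthesis, and its part in these levels was not tested. Of the ovarian carcinoma markers PAX8, WT1, MUC16, MSLN, FOLR1 and ESR1, only FOLR1 passed the filter on low counts, and PAX8, WT1 and MUC16 had at most 2 counts in any library. KRT7 was at 0 and CDH1 at no more than 2 counts, whereas the mesenchymal gene VIM lay between 788 and 2770 CPM. Of 5 leukocyte and 3 endothelial markers none passed the filter. All 5 fibroblast markers passed it, led by the collagen gene COL3A1. The summed level of those 5 was 241 to 384 CPM in A2780 and 1330 to 2170 CPM in A2780cis, and that of 6 epithelial markers, of which EPCAM, KRT8 and KRT18 passed the filter, was 2.09 to 6.45 CPM in A2780 and 25 to 35.8 CPM in A2780cis. The part of these differences in the line comparisons below was not tested. In a culture measured in bulk, fewer cells of a kind and less RNA per cell cannot be told apart.

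As background, a Notch receptor bound by a ligand on a neighbouring cell is cut by ADAM proteases and then by gamma-secretase. The freed intracellular domain enters the nucleus, joins the DNA-binding protein RBPJ and a Mastermind coactivator, and turns on target genes, of which HES1, HES4, HEY1, HEY2 and HEYL are known direct examples. HES and HEY proteins bind E-box or N-box sequences and recruit corepressors of the Groucho/TLE family and others. HES7 is best known from the segmentation clock of the embryo, and HES6 differs from the other members in that it antagonizes HES1. Many of these genes also answer to signals other than Notch.

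The 250 bases before the start site show how the members differ in RBPJ-type motifs. They are printed for HES1, with a pair of matches, for HEYL, with a pair farther apart, and for HES2 and HES7, the members with the largest treatment changes and no match. Sequences are from RefSeq on GRCh38.p14, 5′ to 3′ on the strand of the gene, and capitals mark each match to TGGGAA or its reverse complement TTCCCA.
HES1 (chr3:194135898-194136147, plus strand): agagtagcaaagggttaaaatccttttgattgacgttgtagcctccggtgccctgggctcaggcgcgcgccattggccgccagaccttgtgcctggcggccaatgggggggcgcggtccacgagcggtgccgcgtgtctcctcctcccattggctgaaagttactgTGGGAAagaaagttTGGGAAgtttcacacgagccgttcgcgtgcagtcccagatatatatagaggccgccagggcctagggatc
HES2 (chr1:6419920-6420169, minus strand): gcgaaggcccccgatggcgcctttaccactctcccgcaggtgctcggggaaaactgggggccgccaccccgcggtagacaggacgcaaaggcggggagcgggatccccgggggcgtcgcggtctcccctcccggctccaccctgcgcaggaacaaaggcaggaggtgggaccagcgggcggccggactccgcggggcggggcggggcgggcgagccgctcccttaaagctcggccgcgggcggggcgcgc
HES7 (chr17:8124107-8124356, minus strand): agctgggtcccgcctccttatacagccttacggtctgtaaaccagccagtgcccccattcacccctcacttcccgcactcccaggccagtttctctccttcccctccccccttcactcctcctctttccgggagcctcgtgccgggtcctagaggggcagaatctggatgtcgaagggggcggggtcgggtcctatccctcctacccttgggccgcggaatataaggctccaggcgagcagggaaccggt
HEYL (chr1:39639644-39639893, minus strand): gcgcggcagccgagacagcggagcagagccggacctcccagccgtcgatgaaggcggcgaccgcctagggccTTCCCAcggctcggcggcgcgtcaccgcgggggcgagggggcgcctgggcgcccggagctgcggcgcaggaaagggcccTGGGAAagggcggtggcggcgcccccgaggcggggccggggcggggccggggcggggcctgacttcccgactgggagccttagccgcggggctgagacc

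In HES1 the matches began 84 and 70 bp before the start site, both on the strand of the gene. In HEYL they began 178 and 99 bp before it, on opposite strands. HES4 held 1 match at 76 bp and HEY2 1 at 213 bp, and the windows of HES2, HES6, HES7 and NOTCH1 held none. HEY1 was not searched. Among 35116 RefSeq promoters of this length, 20.8% held at least 1 match on either strand and 2.9% held 2 or more. The N-box CACNAG matched 3 times in HES1 and once in HES7 and occurred in 32% of all promoters. The class C E-box CACGNG matched 4 times in HES1 and once in HES7, against 26.7% of all promoters, and the searches for both motifs covered both strands. Some matches to both motifs are the same bases: the HES7 site at 115 bp and the HES1 sites at 132 and 58 bp before the start. A match is a match of letters in a window, not a measured binding site. For HES2 the RefSeq start differs from the most distal start in GENCODE 44, at position 6424670 of chromosome 1, so the printed window lies inside the GENCODE gene. The windows of HES6 and HEY2 also lie inside their GENCODE genes, and those of HES4, NOTCH1 and HES6 hold 75, 126 and 3 bases of annotated exons.

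HES2 (ENSG00000069812.11, chr1:6412418-6424670, minus strand) was the member with the widest range of levels. In A2780 controls it stood at 0.646, 0.473 and 0.637 CPM at 6 h and at 0.396, 0.232 and 0.411 CPM at 12 h, which is 4 to 9 counts per library. Treated A2780 libraries held 3.58, 3.15 and 2.96 CPM at 6 h and 24.7, 27.0 and 25.7 CPM at 12 h. Every treated library lay above every control, and every 12 h treated library above every 6 h treated one. Ranges without overlap were common in these data: treated and control libraries were apart for 41.6% of all genes tested at 6 h and 64.0% at 12 h in A2780, and for 43.2% and 59.6% in A2780cis. The ratio of the group means was 5.52 at 6 h and 74.6 at 12 h, and the fitted log2 fold changes were 2.43 ± 0.24 (SE) and 6.19 ± 0.19.

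In A2780cis the controls held more HES2 transcript, 1.11, 0.602 and 1.31 CPM at 6 h and 1.88, 1.24 and 1.40 CPM at 12 h. Treated libraries reached 5.10, 5.40 and 5.65 CPM at 6 h and 38.6, 36.1 and 39.2 CPM at 12 h. The ranges of treated and control libraries were again apart at both times. The ratio of means was 5.34 at 6 h and 25.1 at 12 h, with fitted log2 fold changes of 2.39 ± 0.20 and 4.64 ± 0.15. The level after 12 h of treatment was thus higher in A2780cis (37.9 ± 1.66 CPM, SD, n = 3) than in A2780 (25.8 ± 1.18), while the ratio to the control was smaller, with a higher level in the A2780cis controls.

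Ordered by its group means, HES2 rose from the A2780 control at 12 h (0.346 CPM) through the A2780 control at 6 h (0.585) and the A2780cis controls at 6 h (1.01) and 12 h (1.51) to the treated groups. The ranges of the A2780 and A2780cis controls at 6 h overlapped, as did those of the A2780cis controls at both times. The 4 treated groups followed in the order A2780 6 h, A2780cis 6 h, A2780 12 h and A2780cis 12 h with no overlap between neighbours. By fitted log2 fold change, HES2 ranked 17 of 20240 genes in A2780 at 12 h and 102 in A2780cis at 12 h, and 153 and 336 at 6 h. The group was chosen by this rise, so the ranks only describe it.

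The nearest protein-coding neighbours of HES2 on chromosome 1 did not share its range. ESPN, which encodes the actin-bundling protein espin, is read in the opposite direction from a start 106 bp beyond the distal end of HES2, and no exon of ESPN overlaps HES2. In A2780 at 6 h, ESPN stood at 0.777 CPM treated and 0.399 CPM control, with ranges apart as for 41.6% of all genes tested. The log2 fold change was 0.96 ± 0.54 (edgeR adjusted p = 0.19). In A2780 at 12 h, ESPN stood at 2.06 ± 0.765 CPM treated and 1.11 ± 0.561 CPM control (log2 fold change 0.92 ± 0.32, edgeR adjusted p = 0.0167), and the ranges of these groups overlapped. In A2780cis at 6 h it had at most 4 counts in a library. In A2780cis at 12 h it stood at 0.303 ± 0.159 against 0.142 ± 0.0649 CPM, at most 7 counts in a library (1.08 ± 0.69, adjusted p = 0.184). ACOT7, which encodes an acyl-CoA thioesterase and is the nearest protein-coding gene on the other side at 18651 bp, fell at 12 h in A2780 by 0.86 on the log2 scale (edgeR adjusted p = 4.18e-05) and in A2780cis by 1.10 (adjusted p = 1.11e-06). A lncRNA gene that overlaps the start of ACOT7, ENSG00000271746, lies 18027 bp from HES2, and its level is not given here.

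**Figure D1:**
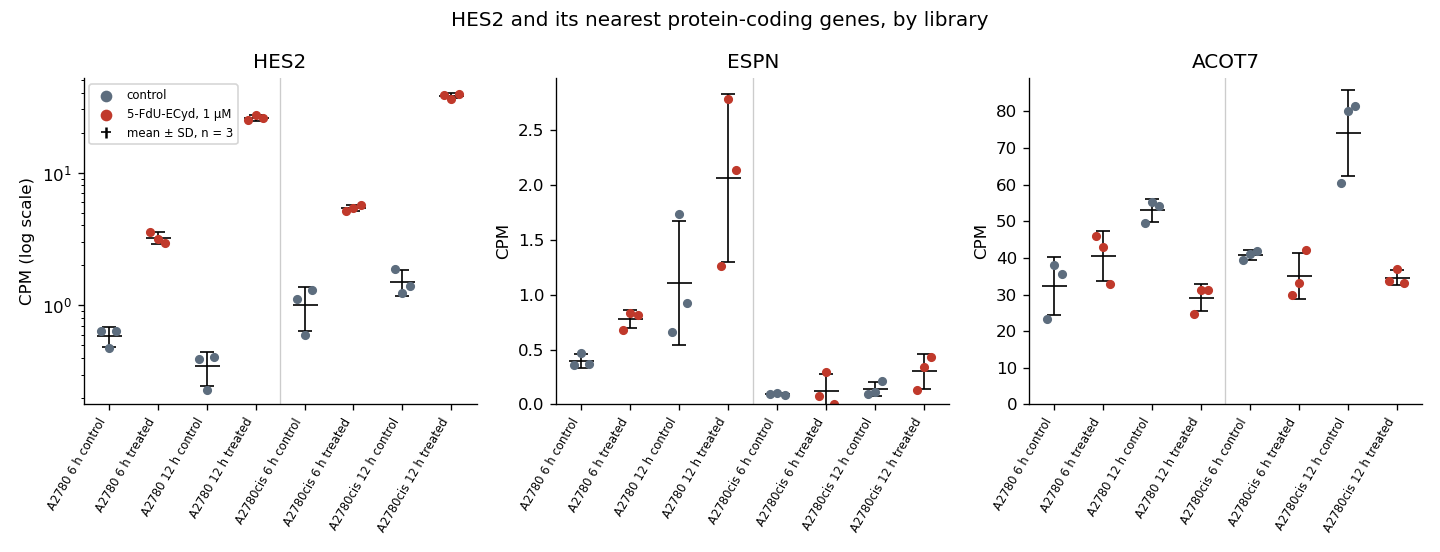
CPM of HES2 (log axis), ESPN and ACOT7 (linear axes from 0) in each of the 24 libraries, by group of line, time and treatment. Points are libraries, grey for control and red for 5-FdU-ECyd, and black marks give the mean ± SD of 3 libraries. HES2 reached 24.7 to 39.2 CPM in the 6 libraries treated for 12 h, whereas ESPN stayed under 3 CPM in all libraries and ACOT7 was lower in the treated than in the control libraries at 12 h.

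HES1 (ENSG00000114315.3, chr3:194136148-194138732, plus strand), a widely used readout of Notch signalling, rose on treatment at 12 h in each line and also at 6 h in A2780. In A2780 at 6 h the controls held 6.53, 6.62 and 9.37 CPM and the treated libraries 11.3, 12.1 and 11.2 CPM. At 12 h they held 7.66, 7.06 and 7.09 CPM against 15.9, 13.4 and 13.5 CPM. The ranges were apart at both times, with log2 fold changes of 0.62 ± 0.14 (adjusted p = 0.00119) and 0.97 ± 0.13 (adjusted p = 5.24e-07), both from edgeR's quasi-likelihood test. In A2780cis the controls held 3.05, 3.01 and 3.35 CPM at 6 h and the treated libraries 3.83, 4.02 and 4.19 CPM. At 12 h they held 2.22, 2.81 and 2.32 CPM against 5.27, 5.57 and 6.17 CPM. Here too the ranges were apart, as they were for 43.2% of all genes tested at 6 h and 59.6% at 12 h. Only the 12 h change passed the test (1.21 ± 0.15, edgeR adjusted p = 1.72e-07), the 6 h value being 0.36 ± 0.17 (adjusted p = 0.107).

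The HES1 response of A2780cis was larger at 12 h than at 6 h, by 0.86 ± 0.23 on the log2 scale (edgeR adjusted p = 0.00740). Without a filter on low counts this difference was 0.78 ± 0.29 and did not pass (adjusted p = 0.0578). In A2780 the corresponding difference was 0.34 ± 0.19 (adjusted p = 0.192). The responses of the lines did not differ past the threshold at 12 h (0.24 ± 0.20, edgeR adjusted p = 0.402). HES1 nevertheless remained lower in A2780cis throughout: its order ran from the A2780cis control at 12 h (2.45 CPM) up to A2780cis treated at 12 h (5.67), then the A2780 controls (7.27 at 12 h and 7.51 at 6 h, overlapping) and A2780 treated at 6 h (11.6) and 12 h (14.3). Each other pair of neighbours in this order was apart.

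HES4 (ENSG00000188290.10, chr1:998962-1000172, minus strand), a relative of HES1, rose in A2780 at both times and in A2780cis at 12 h. A2780 controls at 6 h held 1.01, 0.189 and 1.09 CPM, the middle value being 2 counts, and treated libraries 2.81, 3.05 and 1.85 CPM. At 12 h they held 2.24, 1.39 and 1.85 CPM against 3.57, 3.91 and 3.93 CPM. The log2 fold changes were 1.69 ± 0.44 (edgeR adjusted p = 0.00499) and 1.07 ± 0.32 (adjusted p = 0.00643), with no overlap of ranges at either time. Ranges were apart for 41.6% of all genes tested at 6 h and 64.0% at 12 h in this line. In A2780cis at 6 h the controls held 0.924, 1.00 and 0.818 CPM and the treated libraries 1.20, 1.83 and 1.93 CPM (0.88 ± 0.45, edgeR adjusted p = 0.138). At 12 h they held 1.73, 1.80 and 3.67 CPM against 3.81, 9.19 and 5.86 CPM (1.40 ± 0.29, edgeR adjusted p = 0.00022). Treated and control ranges were apart but wide, where 43.2% of all genes tested were apart at 6 h and 59.6% at 12 h. The highest value, 9.19 CPM, belongs to replicate 2 of the treated A2780cis libraries at 12 h, which was also the highest of its group for HES6, HEYL and NOTCH1. Without it the HES4 change was 1.01, still past the threshold.

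HEY1 (ENSG00000164683.16), a HES-related repressor known from vascular development, was the member whose response differed between the lines at both times. In A2780 at 6 h it rose from 15.7, 17.1 and 17.1 CPM to 24.5, 27.3 and 30.5 CPM (log2 fold change 0.72 ± 0.13, edgeR adjusted p = 0.000154). At 12 h the controls held 10.1, 12.5 and 9.71 CPM and the treated libraries 12.1, 9.28 and 9.67 CPM, with overlapping ranges (-0.06 ± 0.13, edgeR adjusted p = 0.704). In A2780cis at 6 h the values were 7.21, 9.83 and 7.36 CPM against 7.33, 5.84 and 6.78 CPM, also overlapping (-0.28 ± 0.15, edgeR adjusted p = 0.159). At 12 h in this line HEY1 fell from 6.65, 6.57 and 5.88 CPM to 2.67, 2.76 and 2.68 CPM. The 3 treated libraries were close to each other and far below the controls (-1.23 ± 0.16, edgeR adjusted p = 3.40e-07). Ranges were apart for 59.6% of all genes tested in this comparison.

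The difference between the responses, A2780cis minus A2780, was -1.01 ± 0.20 for HEY1 at 6 h (edgeR interaction test, adjusted p = 0.00397) and -1.17 ± 0.21 at 12 h (adjusted p = 0.000292). It held with each of the 12 libraries left out in turn at either time. The HEY1 response also moved down from 6 h to 12 h in each line, by -0.79 ± 0.19 in A2780 (edgeR adjusted p = 0.00328) and by -0.95 ± 0.22 in A2780cis (adjusted p = 0.00288). Its group means ran from 2.70 CPM in A2780cis treated at 12 h to 27.4 CPM in A2780 treated at 6 h. Between these ends, the 3 other A2780cis groups (6.37 to 8.13 CPM) overlapped as neighbours, as did the highest of them with the A2780 groups of 12 h (10.4 and 10.8 CPM), and the A2780 control at 6 h stood apart at 16.6 CPM.

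HEYL (ENSG00000163909.7, chr1:39623435-39639643, minus strand), the third HEY gene, showed small increases. In A2780 at 6 h it went from 6.25, 8.04 and 6.91 CPM to 8.53, 12.1 and 8.67 CPM (log2 fold change 0.47 ± 0.16, edgeR adjusted p = 0.0314). At 12 h in A2780 it went from 8.71, 9.84 and 10.9 CPM to 11.8, 13.7 and 15.5 CPM (0.48 ± 0.14, edgeR adjusted p = 0.00647). In A2780cis it went from 9.89, 11.3 and 9.73 CPM to 12.9, 13.9 and 14 CPM at 6 h (0.40 ± 0.15, edgeR adjusted p = 0.0427). The ranges of control and treated libraries were apart in these 3 comparisons, as for 41.6%, 64.0% and 43.2% of all genes tested. At 12 h in A2780cis the values were 10.4, 14 and 14 against 15.4, 15.8 and 13.5 CPM and overlapped (0.22 ± 0.14, edgeR adjusted p = 0.181).

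The HEYL calls were close to the threshold. The A2780 call at 6 h was lost without control replicate 1 (0.38, adjusted p = 0.158), without control replicate 3 (0.46, adjusted p = 0.0677) or without treated replicate 2 (0.29, adjusted p = 0.230), and that at 12 h without control replicate 1 (adjusted p = 0.0538) or treated replicate 3 (adjusted p = 0.0570). The A2780cis call at 6 h was lost in 5 of 6 fits that left out 1 library, all but the one without control replicate 2, with adjusted p-values up to 0.131. With DESeq2's size factors in edgeR, the 6 h calls of HEYL were lost in A2780 (adjusted p = 0.0505) and in A2780cis (adjusted p = 0.0545), and with the DESeq2 Wald test likewise (adjusted p = 0.0546 and 0.0574). The line difference in the HEYL response was -0.06 ± 0.22 at 6 h and -0.26 ± 0.20 at 12 h, neither past the threshold of edgeR's test. HEY2 (ENSG00000135547.8), the remaining HEY gene and a cardiovascular regulator, had 0 counts in every library, so no change in it could be measured.

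HES7 (ENSG00000179111.8, chr17:8120592-8124106, minus strand) was the tested member that fell in A2780 at 12 h. The A2780 controls at 12 h held 1.52, 1.56 and 1.75 CPM and the treated libraries 0.490, 0.440 and 0.534 CPM, or 23 to 34 counts against 7 to 11. The ranges were far apart (log2 fold change -1.71 ± 0.27, edgeR adjusted p = 8.56e-06), where those of 64.0% of all genes tested were apart. At 6 h the values were 0.861, 0.568 and 1.09 CPM against 0.512, 0.370 and 0.518 CPM, 12 counts or fewer per library, and did not pass the test (-0.83 ± 0.36, edgeR adjusted p = 0.125). In A2780cis HES7 was not called at either time. The 6 h values were 2.87, 2.01 and 3.68 against 2.71, 3.58 and 3.39 CPM (0.17 ± 0.20), and the 12 h values 5.35, 6.34 and 6.10 against 5.27, 7.12 and 7.17 CPM (0.14 ± 0.17). Treated and control ranges overlapped at both times. The response of HES7 differed between the lines at 12 h by 1.85 ± 0.32 (edgeR interaction test, adjusted p = 0.000200), and with any 1 of the 12 libraries left out the difference stayed between 1.77 and 1.97, past the threshold each time. At 6 h the difference was 1.00 ± 0.42 (adjusted p = 0.249).

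HES6 (ENSG00000144485.10, chr2:238238267-238240662, minus strand) was not called in any treatment comparison. In A2780 its treated libraries lay above the controls, 9.21, 6.94 and 7.18 against 4.16, 5.20 and 6.73 CPM at 6 h (0.55 ± 0.21, edgeR adjusted p = 0.0535). At 12 h in this line they held 8.27, 9.19 and 10.7 against 6.86, 6.31 and 7.81 CPM (0.43 ± 0.19, adjusted p = 0.0545), where the ranges of 64.0% of all genes were apart in either direction, and of 41.6% at 6 h. Both values sit at the threshold and passed it in some other settings, among them the fit with the replicate number as a block. In A2780cis the ranges overlapped, with 9.09, 11.4 and 13.7 against 10.8, 8.12 and 10.6 CPM at 6 h and 16.6, 26.6 and 24.9 against 17.8, 19.9 and 22 CPM at 12 h. A lncRNA gene, ENSG00000225057, spans HES6 on the other strand without sharing exon bases.

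NOTCH1 (ENSG00000148400.9, chr9:136494433-136546048, minus strand), the receptor, rose in A2780 and was not called in A2780cis. In A2780 at 6 h it went from 4.59, 5.96 and 9.55 CPM to 17.1, 11.2 and 11.3 CPM (log2 fold change 0.99 ± 0.30, edgeR adjusted p = 0.0162). This call was lost without control replicate 1 (0.76, adjusted p = 0.115), control replicate 2 (0.92, adjusted p = 0.0558) or treated replicate 1 (0.76, adjusted p = 0.112). At 12 h it went from 12.9, 14.4 and 15.5 CPM to 19.4, 32.7 and 34.1 CPM (1.02 ± 0.26, edgeR adjusted p = 0.00171). The ranges were apart at both times, as for 41.6% and 64.0% of all genes tested, although the treated libraries scattered widely. In A2780cis the values were 13.2, 12.4 and 11.9 against 9.89, 11.2 and 13.5 CPM at 6 h (-0.11 ± 0.28, adjusted p = 0.824) and 17.8, 27.1 and 34.8 against 22.2, 39.3 and 18.5 CPM at 12 h (0.01 ± 0.25, adjusted p = 0.986, both from edgeR). Ranges overlapped at both times, and the sign at 12 h turned in several other settings.

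The line difference in the NOTCH1 response at 12 h, -1.0 ± 0.36, was just past the threshold (edgeR interaction test, adjusted p = 0.0438). With 1 library left out it ran from -1.40 to -0.76 and was lost in 9 of 12 cases: without any 1 of the A2780 controls, A2780 treated replicates 2 or 3, A2780cis control replicates 2 or 3, or A2780cis treated replicates 1 or 3. It was also lost with the DESeq2 Wald test (adjusted p = 0.0756) and in an edgeR fit of the compared libraries alone (adjusted p = 0.0790). At 6 h it was -1.10 ± 0.42 (adjusted p = 0.169). Ordered by group means, NOTCH1 was lowest in the A2780 control at 6 h (6.70 CPM). Then came 4 groups between 11.5 and 14.3 CPM with overlapping neighbours, and 3 groups of 12 h between 26.6 and 28.7 CPM that also overlapped.

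**Figure D2:**
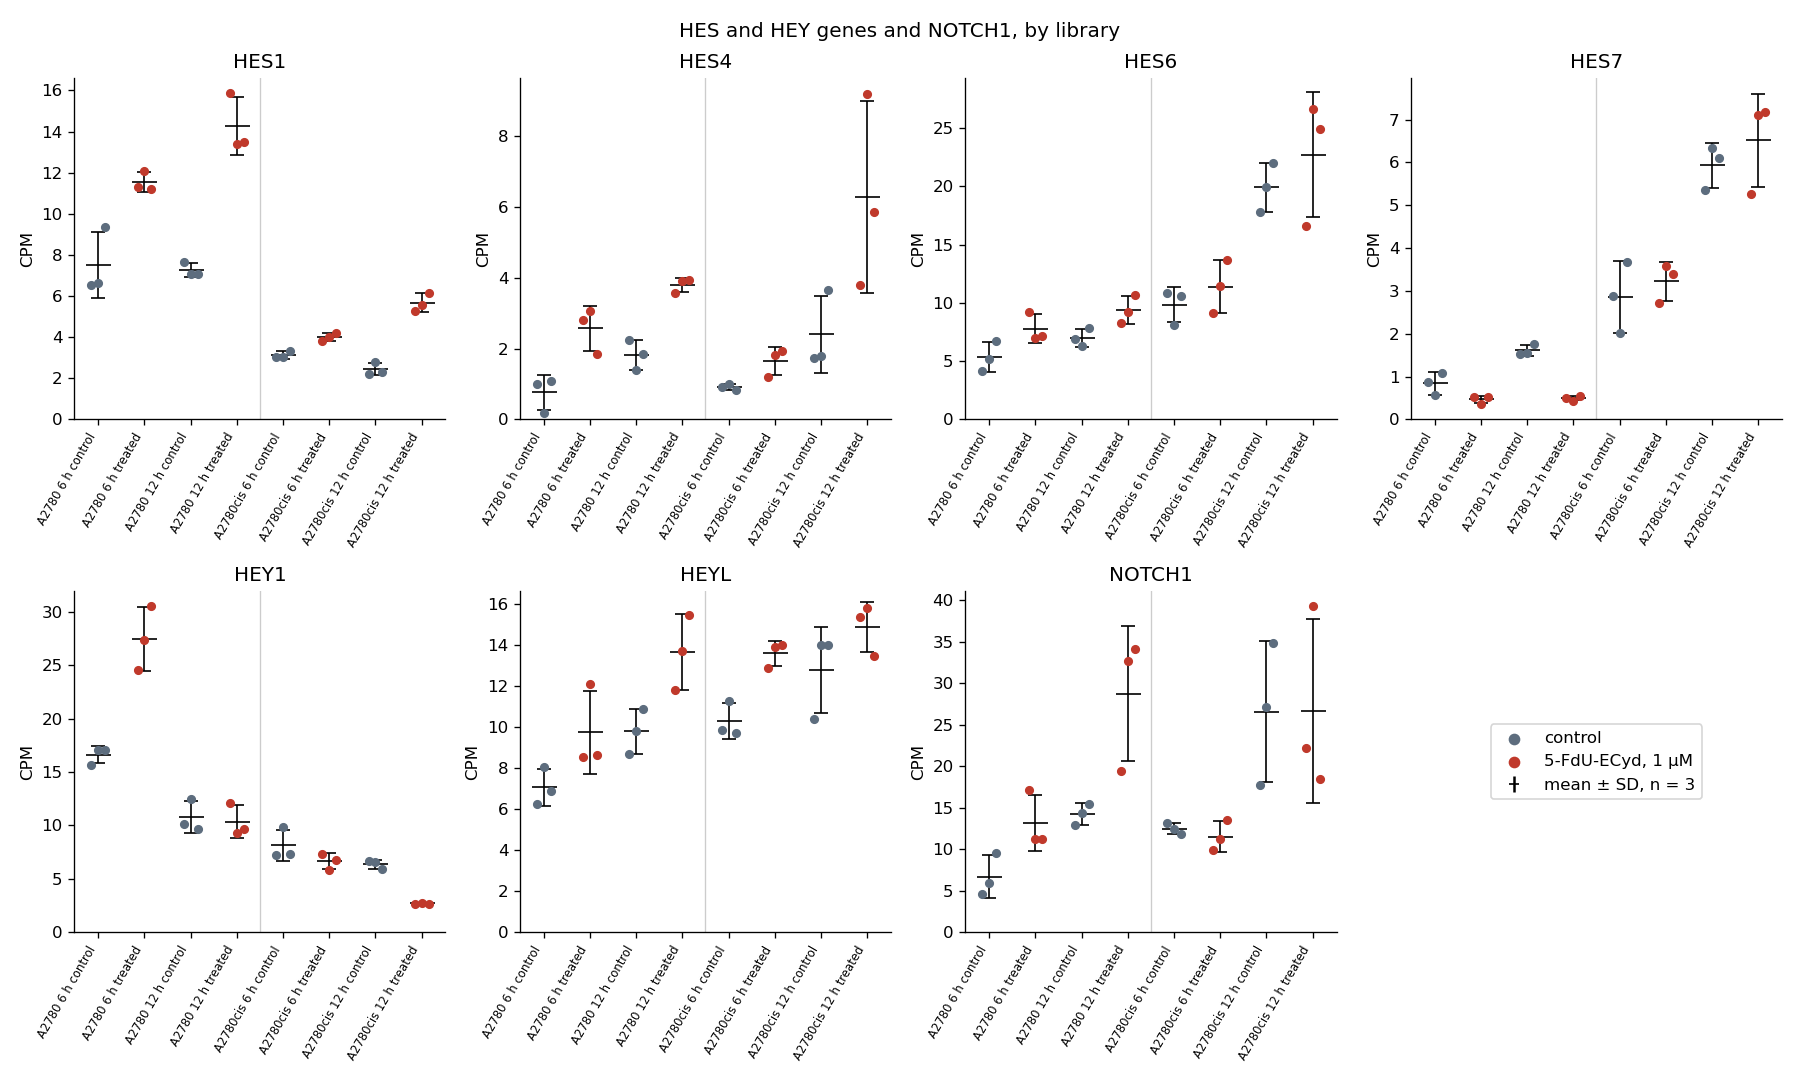
CPM (linear axes from 0) of the 7 tested members in each library, by group of line, time and treatment; points are libraries, grey for control and red for 5-FdU-ECyd, with black marks for mean ± SD of 3 libraries. HES1 was higher and HEY1 mostly lower in treated than control A2780cis libraries, HES7 fell in treated A2780 libraries, and NOTCH1 and HES4 scattered most at 12 h.

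Counted over the 7 tested members, A2780 at 6 h had 5 that rose (HES1, HES4, HEY1, HEYL and NOTCH1) and none that fell, where 29.4% of all genes tested were called (16.0% higher and 13.4% lower). In A2780 at 12 h, 4 rose (HES1, HES4, HEYL and NOTCH1) and HES7 fell, with 54.8% of all genes called (28.6% higher and 26.1% lower). In A2780cis at 6 h only HEYL was called, with 30.7% of all genes called (14.4% higher and 16.3% lower). In A2780cis at 12 h HES1 and HES4 rose and HEY1 fell, 3 of 7, with 59.9% of all genes called (31.0% higher and 28.9% lower). The median log2 fold change of the 7 members was 0.62 in A2780 at 6 h, 0.48 at 12 h, and 0.22 and 0.19 in A2780cis, beside medians of all genes from 0.000321 to 0.0373. The A2780 count at 6 h fell from 5 to 3 without control replicate 1. The 12 h shares stand beside a fall of the summed mesenchymal markers VIM, CDH2 and FN1, from 2250 to 2590 CPM in the controls to 790 to 952 CPM in the treated libraries, whose part in the results was not tested.

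**Figure D3:**
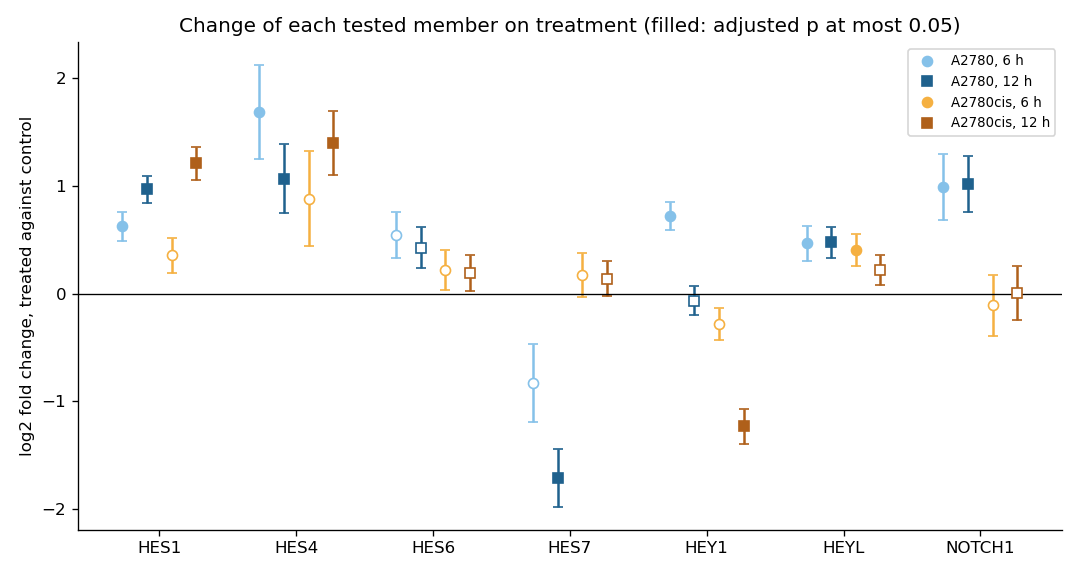
Log2 fold change of treated against control cells (vertical axis) for the 7 tested members, in A2780 (blue) and A2780cis (orange) at 6 h (circles) and 12 h (squares). Bars are ± 1 SE from edgeR, and filled symbols passed an adjusted p of 0.05. HEY1 is at 0.72 in A2780 at 6 h and -1.23 in A2780cis at 12 h, and HES7 at -1.71 in A2780 at 12 h.

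The direct tests between responses called at most 3 of 7 members each. At 6 h, HEY1 was the 1 of 7 members whose response differed between the lines, with 3.07% of all genes called (0.692% higher and 2.38% lower). At 12 h, 3 of 7 differed, HEY1 and NOTCH1 with a lower and HES7 with a higher response in A2780cis, with 23.7% of all genes called (9.70% higher and 14% lower). Between 6 h and 12 h, the response differed for HEY1 in A2780 (1 of 7, with 23.7% of all genes called, 10.7% higher and 13% lower) and for HES1 and HEY1 in A2780cis (2 of 7, with 24% called, 10.3% higher and 13.6% lower). These tests reuse the same control libraries as the treatment comparisons.

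Untreated cells of the lines already differed in most members. Averaged over both times, HES1 was lower in A2780cis by -1.41 ± 0.11 on the log2 scale (edgeR adjusted p = 1.13e-11) and HEY1 by -0.90 ± 0.10 (adjusted p = 1.21e-08). HES7 was higher by 1.82 ± 0.16 (edgeR adjusted p = 2.18e-10), HES6 by 1.20 ± 0.14 (adjusted p = 2.56e-08), NOTCH1 by 0.90 ± 0.20 (adjusted p = 0.000347) and HEYL by 0.46 ± 0.11 (adjusted p = 0.000606). HES4 was not called (0.30 ± 0.32, edgeR adjusted p = 0.421). So 6 of 7 members passed, 4 higher and 2 lower, with 61.3% of all genes called (31.1% higher and 30.2% lower), and all 6 held with each library left out.

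Members also differed between the control times. In A2780, HES4 (log2 difference 1.20), HES7 (0.93), HEYL (0.48) and NOTCH1 (1.11) were higher at 12 h than at 6 h and HEY1 was lower (-0.63 ± 0.13, edgeR adjusted p = 0.00236), 5 of 7 with 26.9% of all genes called (16.6% higher and 10.3% lower). In A2780cis, HES4 (1.39), HES6 (1.01), HES7 (1.04) and NOTCH1 (1.08) were higher and none was lower, 4 of 7 with 39.9% of all genes called (18% higher and 21.9% lower). The level of NOTCH1 was 6.70 CPM at 6 h and 14.3 CPM at 12 h in A2780, and 12.5 and 26.6 CPM in A2780cis. The A2780 count dropped to 1 without 6 h control replicate 1, to 3 without 6 h control replicate 2 and to 2 without 12 h control replicate 3. In A2780cis the HES4 call was lost without 12 h control replicate 3 (0.95, edgeR adjusted p = 0.101). The 12 h increases with treatment in A2780 therefore start from controls that were themselves above those of 6 h for HES4, HEYL and NOTCH1.

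Per kilobase of exon, HES6 had the highest median of group means, 4.92 CPM per kb, followed by HES1 at 3.14, HEYL at 2.83, HES4 at 1.89, HEY1 at 1.69, HES7 at 1.19 and NOTCH1 at 1.09. HES2 was lowest among the detected members by this median, 0.438 CPM per kb, but its highest group mean, 7.02 CPM per kb in A2780cis treated at 12 h, exceeded that of all detected members except HES6 (11.6). HES1 reached 6.93 CPM per kb in A2780 treated at 12 h. Lengths are the union of all exons of a gene in GENCODE 44, 5407 bp for HES2 and 2059 bp for HES1. They are not from the GRCh38.p7 annotation used for the counts, and the order under other lengths was not tested. Of the HES family genes outside the group, HES3 had at most 1.5 counts and HES5 at most 1 count in a library.

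A list of 73 other Notch pathway genes, drawn up by role, had 60 members that passed the filter. In A2780, 18 were higher and 11 lower at 6 h, and 14 higher and 25 lower at 12 h. In A2780cis, 10 were higher and 18 lower at 6 h, and 13 higher and 26 lower at 12 h. That makes 29, 39, 28 and 39 of 60 called, beside 29.4%, 54.8%, 30.7% and 59.9% of all genes. The A2780cis count at 6 h dropped from 28 to 18 without treated replicate 3, the deepest library. The list's median log2 fold change was 0.11 in A2780 at 6 h and -0.21 at 12 h, and -0.13 and -0.26 in A2780cis. The values named below are the 12 h log2 fold changes, up to 3 genes per role with the smallest adjusted p over both lines, all from edgeR's test. At 12 h, 28.6% of all genes were higher and 26.1% lower in A2780, and 31.0% higher and 28.9% lower in A2780cis, and the counts per role below stand beside these shares.

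Of the 2 other receptor genes and 4 ligand genes tested, 3 fell and none rose in A2780, and 3 fell and 1 rose in A2780cis. NOTCH2 fell in A2780 (-0.56 ± 0.17, adjusted p = 0.00531) and in A2780cis (-1.38 ± 0.17, adjusted p = 1.68e-07), with the limit that it shares sequence with near-identical NOTCH2NL genes. NOTCH3 stood at 0.11 and 0.13 and was not called. The ligand gene JAG1 fell in A2780 from 11.6 to 5.37 CPM (-1.12 ± 0.20, adjusted p = 4.44e-05) and was under 1 CPM in A2780cis (-0.62 ± 0.40, not called). DLL3, an atypical ligand, fell in both lines (-0.71 and -0.37), and DLL4 rose in A2780cis from 0.872 to 3.07 CPM (1.80 ± 0.27, adjusted p = 2.08e-06) and was not called in A2780 (-0.64 ± 0.45). DLL1 had 0 counts throughout.

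Genes that modify, cut or degrade the receptor moved in both directions. Of 4 tested glycosyltransferases of receptor or ligand, 3 rose in A2780 at 12 h, LFNG (2.16 ± 0.31) and RFNG (1.41 ± 0.23) of the Fringe family and POGLUT1 (0.40 ± 0.11). In A2780cis 1 rose and 1 fell: LFNG rose by 0.65 ± 0.28 (adjusted p = 0.0492), RFNG was not called (-0.02 ± 0.21), and the gene that fell was POFUT1 (-0.29, adjusted p = 0.00647), named here after its values were seen. Of the 9 proteases and subunits, 2 rose and 2 fell in A2780 and 4 rose and 2 fell in A2780cis. APH1B, a gamma-secretase subunit gene, rose in both lines (0.76 and 1.62), ADAM10 fell in both (-0.73 and -0.72), and APH1A fell in A2780 (-0.37). Of 11 ubiquitin ligases and adaptors, 6 rose and 3 fell in A2780 and 3 rose and 4 fell in A2780cis. FBXW7, which marks the receptor's intracellular domain for degradation, rose in A2780 from 21.5 to 77.3 CPM (1.85 ± 0.09, adjusted p = 2.25e-14) and in A2780cis from 24.1 to 57.4 CPM (1.25 ± 0.09, adjusted p = 1.95e-11). NEURL1B, a ligase gene for ligand uptake, rose in both (1.85 and 0.82), and NUMB, an inhibitor of the receptor, fell in both (-0.23 and -0.82).

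In the nucleus, most listed genes that were called fell. Of 9 genes of the activation complex, 6 fell and 1 rose in A2780 and 5 fell and 1 rose in A2780cis. The one that rose was the acetyltransferase gene KAT2B, from 3.27 to 21.8 CPM in A2780 (2.74 ± 0.17, adjusted p = 9.48e-13) and by 0.36 ± 0.15 in A2780cis. MAML3, a Mastermind coactivator gene, fell in A2780 (-2.08 ± 0.20) and was near 0 in A2780cis (0.018 CPM in controls), and CREBBP fell in both lines (-0.61 and -1.55). Of 14 corepressor genes 9 fell and none rose in A2780, and 8 fell and 1 rose in A2780cis, where 26.1% and 28.9% of all genes were lower. CTBP2 (-1.17 and -1.76) and NCOR1 (-0.99 and -1.45) fell in both lines.

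NRARP, a feedback inhibitor and Notch target, fell in A2780 (-0.48 ± 0.18, adjusted p = 0.0265) and rose in A2780cis (0.74 ± 0.18, adjusted p = 0.00100). Among the other HES-related repressor genes, BHLHE40 rose in both lines (0.99 and 0.48) and BHLHE41 was not called. Of the 4 ID genes, whose products hold bHLH factors off DNA, 1 rose and 1 fell in A2780 and 3 fell and none rose in A2780cis. ID4 fell in both lines (-1.10 and -0.69), and ID3 (-1.53) and ID1 (-0.66) fell in A2780cis and were not called in A2780 (-0.26 and 0.15). The gene that rose in A2780 was ID2 (0.52, adjusted p = 0.0001), named after its values were seen, and it was not called in A2780cis (-0.11). None of 6 proneural activator genes, which HES proteins are known to repress, had more than 1 count in a library. No test compared these list genes between the lines.

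**Figure D4:**
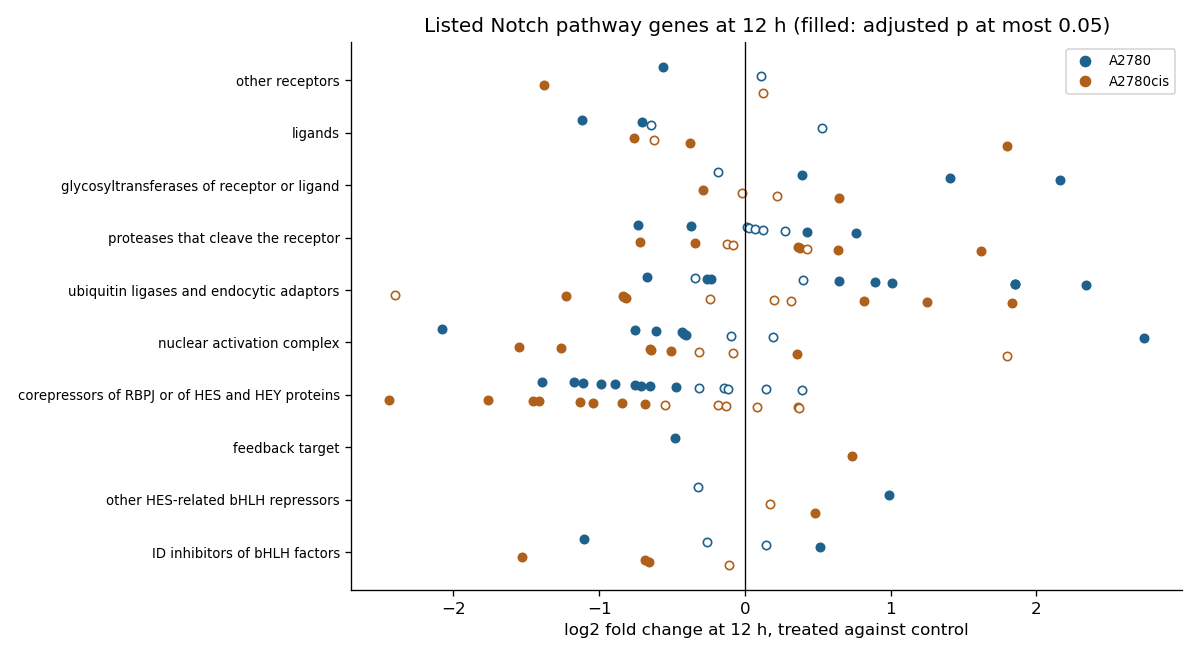
Log2 fold change at 12 h of treated against control cells (horizontal axis) for the 60 tested Notch pathway genes, in rows by role, A2780 in blue and A2780cis in orange. Each point is 1 gene and filled points passed an adjusted p of 0.05. In the row of corepressors 9 points in A2780 and 8 in A2780cis are filled left of 0.

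Among the 12518 tested genes that averaged 2 or more on the log2 CPM scale, those whose log2 CPM followed HES2 most closely over the 24 libraries were GLIPR2 (Pearson r = 0.978), RABL2B (0.972), ZNF563 (0.969), BLCAP (0.968) and RETSAT (0.964), the last encoding retinol saturase. At 12 h GLIPR2 stood at 22.1 CPM in treated and 4.14 CPM in control A2780 cells and at 26.9 and 7.10 CPM in A2780cis, and RETSAT at 106 and 25.1 CPM in A2780 and 96.4 and 26.4 CPM in A2780cis. Those closest to HES1 were PLAU (0.983), which encodes urokinase, SLC25A4 (0.974), ABCC6P1 (0.973), C1S (0.969) and ANKRD10 (0.969). At 12 h PLAU stood at 51.0 CPM treated and 13 CPM control in A2780, and at 6.48 and 1.13 CPM in A2780cis. RABL2B and the pseudogene ABCC6P1 have near-identical copies, so their counts are uncertain. The 24 points fall into 8 groups that share treatment, line and depth and are not independent. Over the 12 libraries of A2780 alone 1 of the 5 genes (BLCAP) was again among the 5 closest to HES2, over those of A2780cis none, and for HES1 none in either line.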

How the data were processed

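Total RNA of A2780 and A2780cis cells was sequenced from stranded libraries. Per the labels and the study's methods, the authors trimmed the reads with Trimmomatic, aligned them with STAR 2.5.2b to GRCh38.p7 and counted them over exons by gene with featureCounts. The deposited values are estimated counts, not normalized: reads with several alignments or over several genes entered as fractions, and 9.50% to 12.8% of the entries of a library were not whole. The strand setting of the counting is not given in the sources used here, so reads of HES6, HEYL, HEY2 and NOTCH1 and of genes on the other strand (ENSG00000225057, ENSG00000225903, HEY2-AS1 and ENSG00000227512) may not be separated. MIR4673 lies within NOTCH1 on its strand. The labels describe single reads and the methods paired-end reads.

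Rounded counts were fitted with edgeR 4.0.16 (R 4.3.3): filterByExpr (minimum count 10, minimum total 15), TMM, and 1 quasi-likelihood model of all 24 libraries with 1 coefficient per group (16 residual degrees of freedom). Adjusted p-values are two-sided, Benjamini-Hochberg over 20240 genes, threshold 0.05. Each SE is the absolute log2 fold change divided by the square root of F. The treatment comparisons at 6 h and 12 h have separate controls, which the interaction, response-over-time and untreated comparisons reuse. How often changes of the size seen in the members would be called, given their spread between libraries, was not tested. DESeq2 1.42.0 served as an alternative test. Gene positions are from GENCODE 44 on GRCh38, which lists 56948 of the 63299 identifiers, and promoters from RefSeq. Tables were made with pandas 2.3.3 in Python 3.11.15, and plots with matplotlib 3.10.9.

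The members and gene lists were chosen with earlier results of these data known. Genes named are the members, up to 3 genes per role of the Notch list with the smallest adjusted p at 12 h (1 of them is not reported here), the 5 genes most like HES2 and HES1 by Pearson correlation of log2 CPM, genes that overlap a member, and the neighbours of HES2. Alternatives were size factors as in DESeq2, library size alone, no filter, counts not rounded, a replicate block, compared libraries alone, the DESeq2 Wald test and each library left out.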

Additional observations from a re-analysis of the deposited data

Results flagged for a closer look

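The response to treatment differed between the lines by edgeR's interaction test for 3 tested members. For HEY1 the log2 response of A2780cis minus that of A2780 was -1.01 at 6 h and -1.17 at 12 h. For HES7 it was 1.85 at 12 h, on 7 to 34 counts per A2780 library of that time. For NOTCH1 it was -1.0 at 12 h, a call lost in 9 of 12 fits that left out 1 library. With 3 libraries per group, no single library was tested for standing apart from its group.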

How the results depend on the processing

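Of the comparisons of members, the count in A2780cis at 6 h was 1 called member (HEYL) in the reported fit against 0 with size factors as in DESeq2 and 0 with the DESeq2 Wald test, and 2 with scaling by library size alone (HES1 and HEYL), with no filter on low counts or with the compared libraries alone (HES4 and HEYL in both). Leaving out 1 library gave 0 to 1. With no filter, the interaction count at 6 h was 2 (NOTCH1 joining HEY1) in place of 1, and the A2780cis count of changed responses between 6 h and 12 h was 1 in place of 2. Leaving out 1 library gave 3 to 5 members in A2780 at 6 h, 1 to 4 in untreated A2780 over time, and 18 to 28 Notch list genes in A2780cis at 6 h. Of the 5 genes most like HES2, 1 was shared with the list from A2780 alone and 0 with that from A2780cis alone, and of those of HES1 0 and 0.

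Signs turned only in values that had not passed the threshold, or were not tested. With library size alone these were HEY1 in A2780 at 12 h (0.16), the change of the HES6 response of A2780 between 6 h and 12 h (0.0399) and HES1 in untreated A2780 over time (0.0229). With no filter they were NOTCH1 in A2780cis at 12 h (-0.0412, and -0.00188 with DESeq2) and the changes of the A2780 responses of HEYL (-0.0215) and NOTCH1 (-0.00715) between 6 h and 12 h. The interaction of HES2 at 6 h was 0.0199 with the compared libraries alone. With 1 library left out, the ranges that crossed 0 were, for treatment, HEY1 in A2780 at 12 h (-0.199 to 0.0521), HES7 in A2780cis at 6 h (-0.0199 to 0.405) and NOTCH1 in A2780cis at 12 h (-0.38 to 0.25). For the interaction they were HEYL (-0.16 to 0.11) and HES2 (-0.28 to 0.20) at 6 h and HES4 at 12 h (-0.0515 to 0.766). For the response between 6 h and 12 h they were, in A2780, HES6 (-0.318 to 0.0448), HEYL (-0.10 to 0.18) and NOTCH1 (-0.32 to 0.25), and in A2780cis, HES6 (-0.17 to 0.13), HES7 (-0.27 to 0.15) and NOTCH1 (-0.28 to 0.35). For untreated A2780 over time it was HES1 (-0.14 to 0.14). The HEYL call in A2780 at 6 h was also lost with the compared libraries alone (adjusted p = 0.0653), and that of HES4 in untreated A2780 over time with size factors as in DESeq2 (0.0508) and with library size alone (0.0516). The causes were not tested.

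With library size alone, the median log2 fold change of all genes at 12 h was 0.238 in place of 0.0155 for A2780 and 0.145 in place of 0.037 for A2780cis. The share of called genes that were higher then went from 52.3% to 70.7% in A2780 at 12 h, from 47.0% to 61.4% in A2780cis at 6 h, from 45.1% to 69.7% for the A2780 response over time, from 61.7% to 71.9% and from 45.2% to 74.6% for untreated A2780 and A2780cis over time, and from 41% to 27.0% for the interaction at 12 h. Whether the replicate numbers of the labels pair the libraries was not settled. Deviations of same-numbered control and treated libraries correlated between -0.254 and 0.312. More genes were called with that number as a block in every comparison, for example 6281 in place of 5950 in A2780 at 6 h. With the replicate block, 6 in place of 5 members were called in A2780 at 6 h and 6 in place of 5 at 12 h, HES6 being added each time, the other member counts were equal, and the A2780 response of NOTCH1 over time was -0.0258. Depth was low for HES7 and HES4 in A2780 at 6 h, with 4 to 12 and 2 to 33 counts per library.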
